A study of Caenorhabditis elegans with 12 samples.

Results

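The nas genes of Caenorhabditis elegans encode nematode astacins, a large family of metalloproteases. Members were taken by symbol: every gene listed in the count tables whose WBcel235 annotation symbol begins with nas-, apart from nas-36 and nas-37, which were set aside as moulting enzymes. This gave 35 gene IDs of the 46739 genes listed, all annotated as protein-coding. They lie on all 6 chromosomes, with 14 members on V, 7 on X, 5 on II, 4 on IV, 3 on III and 2 on I.

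Astacins are zinc endopeptidases that are mostly secreted and are made as inactive precursors with a propeptide. In the worm the family is far larger than in mammals, and its known members act in hatching, in moulting, in the trimming of cuticle collagens and in the pharynx and digestive tract. The low-numbered genes encode little beyond the catalytic domain. Many of the others add EGF-like, CUB, ShK toxin-like or thrombospondin type domains behind it, and the family numbering broadly follows this domain make-up.

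Whole worms at the late L4 larval stage, grown at 20 °C, were used for total RNA and Illumina sequencing, with 3 libraries for each of 4 genotypes. The genotypes were the double mutant carrying eat-2(ad465) and acs-20(tm3232) (strain DCL33), the acs-20(tm3232) mutant (DCL29), the eat-2(ad465) mutant (DA465) and wild-type N2. EAT-2 is a nicotinic receptor subunit that sustains fast pharyngeal pumping, and its mutants eat less and serve as a genetic model of dietary restriction. ACS-20 is a fatty acid transport protein of the acyl-CoA synthetase kind that is needed for the cuticle barrier. Each mutant genotype is 1 strain, so an effect of a mutation and of other differences carried by that strain cannot be told apart.

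Counts in genes came to between 7116623 and 12016769 per library. The mutated genes gave little check of the labels. eat-2 had 1, 4, 0 and 3 reads in all over the double mutant, acs-20, eat-2 and wild-type libraries. acs-20 had 678 to 970 reads per library in the double mutant, 780 to 1027 in acs-20, 734 to 1149 in eat-2 and 953 to 1333 in wild-type, and reads from outside a deleted stretch do not test for the deletion. The labels do not say whether the 3 libraries of a genotype came from separate cultures, and p-values here reflect only the scatter of libraries, which may be technical.

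Of the 35 members, 25 had enough reads to be tested, 7 were counted but fell below the filter on low counts, and 3 had no read in any library. The tested members hold all 10 genes from nas-6 to nas-15, all 5 genes from nas-31 upward, 4 of the 6 from nas-1 to nas-5, and 6 of the 14 from nas-16 to nas-30. The unread genes were nas-16 and the pair of gene IDs that share the symbol nas-2. Both nas-2 genes lie on chromosome V with 819 bp of exon each, and reads that fit both copies would have been set apart as not unique. The counted but untested genes all belong to the nas-16 to nas-30 block. Over all 12 libraries nas-17 and nas-18 had 1 read each, nas-19 had 3, nas-24 had 46, nas-21 had 51, nas-28 had 64 and nas-25 had 68.

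Several of these near-silent genes are neighbours on chromosome V. In the RefSeq gene order of WBcel235, nas-18, nas-17 and nas-19 stand side by side, and nas-16 is separated from them by 1 coding gene. A further 13 coding genes along, nas-20, nas-21 and nas-22 stand side by side. That second run was read, with 348 reads for nas-20, 51 for nas-21 and 238 for nas-22 over the 12 libraries, so the near-silence was a property of the first run of 4.

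Per kilobase of exon, the family was led by nas-11 with a mean of 36.5 CPM per kilobase over the 12 libraries, where CPM are counts scaled to a common library size. It was followed by nas-38 with 16.8, nas-7 with 15.1, nas-9 with 9.38, nas-27 with 4.45 and nas-30 with 3.65 CPM per kilobase. At the other end of the tested members were nas-12 with 0.655 and nas-13 with 0.559 CPM per kilobase. nas-11 led in every genotype, with 47.6 ± 4.37 CPM per kilobase in the double mutant, 41.4 ± 0.130 in acs-20, 25.8 ± 2.01 in eat-2 and 31.3 ± 4.64 in wild-type (SD, n = 3 each). Behind it the order depended on the genotype. nas-38 had 25.9 ± 7.31 CPM per kilobase in the double mutant and 12.5 ± 0.788 in wild-type, against 16.7 ± 6.05 and 17.4 ± 2.30 for nas-7 in the same genotypes, so nas-7 stood above nas-38 in wild-type. In the double mutant nas-38 was above nas-7 in each of the 3 libraries, at 32.7, 26.9 and 18.2 against 23.5, 14.9 and 11.8 CPM per kilobase.

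**Figure D1:**
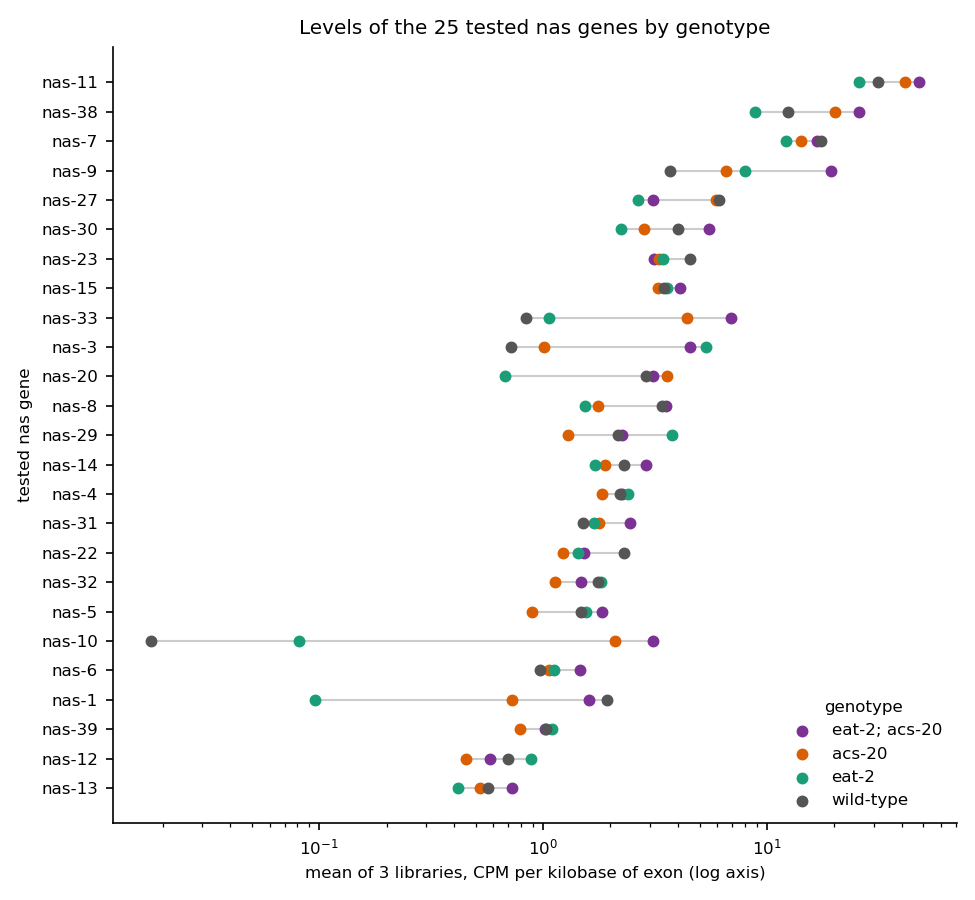
Mean level of each of the 25 tested nas genes in CPM per kilobase of exon (log axis), with 1 point for each genotype. Most genes keep their 4 points close together, while nas-10 spans the widest range and nas-11 leads in every genotype.

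Summed over all 35 members, the family reached 349, 335 and 249 CPM in the double mutant libraries. It came to 214, 282 and 198 CPM in the acs-20 libraries, 190.0, 158 and 161 CPM in the eat-2 libraries, and 208, 203 and 190 CPM in the wild-type libraries. The double mutant sums lay above all wild-type and eat-2 sums, and the acs-20 sums overlapped with wild-type through replicate 3. In this sum nas-11 alone took 22.2 to 37.3% and the 3 highest genes together 43.5 to 62.4%, so it follows a few genes.

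Replicate 2 of acs-20 stood apart from the other libraries of its genotype. It was the highest of the 3 in 19 of the 25 tested members, against 5 for replicate 1 and 1 for replicate 3. Its tested members lay a median of 0.34 above the genotype mean on the log2 scale. The other 11 libraries lay between -0.28 and 0.27, with acs-20 replicate 3 at -0.28. Among the acs-20 libraries, replicate 2 had the lowest summed level of moulting genes, with 4781 CPM against 8006 and 7423 in replicates 1 and 3. It had the highest of pharyngeal marginal cell and epithelial genes, with 169 CPM against 75.9 and 69.0. Its oocyte and eggshell genes summed to 1320 CPM, against 576 and 759 CPM. This profile was not particular to acs-20. Wild-type replicate 2 was also lowest of its genotype for moulting genes, with 5367 CPM against 6741 and 8539. It was highest for the marginal cell and epithelial genes (274 CPM) and for the oocyte and eggshell genes (1042 CPM). In eat-2, replicate 2 was highest for the oocyte and eggshell genes (1194 CPM). The part of these 3 lists in the nas values was not tested. Without acs-20 replicate 2 the calls of acs-20 and of the double mutant against wild-type were the same genes. nas-30 was gained in the double mutant against eat-2, nas-8 and nas-9 in eat-2 against wild-type, nas-8 and nas-30 in the double mutant against acs-20, and nas-8 and nas-30 for the interaction.

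Differences between genotypes were tested with edgeR's quasi-likelihood test on the counts, with Benjamini-Hochberg adjustment over all 14390 tested genes. A gene was called changed at an adjusted p under 0.05. In the double mutant against wild-type, 6 of the 25 tested nas genes rose, or 24%, where 8.94% of all tested genes rose. None fell in that edgeR test, where 8.62% of all tested genes fell. Without nas-10, which passed the filter on low counts only through the genotypes where it was high, 5 of 24 rose, or 20.8%. The count of lower members was 1 at an unadjusted p under 0.05 and 0 with DESeq2. An edgeR fit of the double mutant and wild-type libraries alone called 6 higher and 1 lower. The lower member was nas-23 (log2 -0.54, adjusted p = 0.0483). The median log2 fold change of the 25 members was 0.23, beside 0.04 over all tested genes.

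The acs-20 mutant alone gave 2 higher members, or 8%, beside 0.987% of all genes. One of the pair is nas-10, and without it the share was 1 of 24, or 4.17%. The acs-20 mutant gave no lower member with edgeR, beside 1.22% of all genes, with 4 lower at an unadjusted p under 0.05 and 0 with DESeq2. The eat-2 mutant alone gave 1 higher and 1 lower member, or 4% each way, beside 4.12% higher and 3.54% lower among all genes. Those shares are near the background, but each is a single gene. The lower member is nas-1, which had no eat-2 library past the filter on low counts. Without it, 1 of 24 was higher, or 4.17%, and 0 were lower. At an unadjusted p under 0.05, 3 of the 25 were higher and 6 lower. In a fit of the eat-2 and wild-type libraries alone, 5 of 23 tested members were called in either direction, or 21.7%, beside 6.86% of all genes. Without replicate 2 of acs-20, which is no part of that comparison but shares its fit, the eat-2 count was 4, with nas-8 and nas-9 beside nas-1 and nas-3.

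Adding acs-20 to eat-2, as the double mutant against eat-2, gave 6 higher members, or 24%, beside 1.36% of all genes. Without nas-10 and nas-1, which had no eat-2 library past the filter, 4 of 23 rose, or 17.4%. No member was lower with edgeR, beside 0.757% of all genes, with 1 lower at an unadjusted p under 0.05 and 0 with DESeq2. Adding eat-2 to acs-20, as the double mutant against acs-20, gave 2 higher members, or 8%, beside 7.64% of all genes, a share near the background. No member was lower there with edgeR, with DESeq2 or at an unadjusted p under 0.05, beside 5.31% of all genes called lower. The 2 became 4 without replicate 2 of acs-20 and likewise without replicate 3 of the double mutant. The interaction is the log2 effect of eat-2 where acs-20 is mutated (double mutant over acs-20), less its log2 effect where acs-20 is intact (eat-2 over wild-type). It gave 1 higher member, or 4%, beside 0.139% of all genes. That member is nas-1, which was tested only through the genotypes where it was high. None was lower with edgeR, DESeq2 or an unadjusted p under 0.05, beside 0.0486% of all genes.

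In all, 7 members were called in at least 1 of the 6 contrasts. They were nas-1 and nas-3 among the short, low-numbered astacins, nas-9, nas-10 and nas-11 in the nas-6 to nas-15 block, and nas-33 and nas-38 in the thrombospondin-domain group. These 7 are nas-1 (WBGene00003520, chromosome III), nas-3 (WBGene00003522, V), nas-9 (WBGene00003528, V), nas-10 (WBGene00003529, X), nas-11 (WBGene00003530, X), nas-33 (WBGene00003551, X) and nas-38 (WBGene00003554, X). The share of all tested genes called in at least 1 contrast is not given here. The 7 are therefore a list and not a count to set against a background. In the double mutant against wild-type alone, 8.94% of all tested genes rose and 8.62% fell. In this edgeR fit the other 18 tested members were not called in any contrast. Of these, 6 passed in at least 1 alternative fit, which were nas-5, nas-7, nas-8, nas-23, nas-30 and nas-31, and 12 in none. nas-5, nas-8, nas-23 and nas-31 are named after their values were seen. In whole-worm RNA, a change in the number of cells that make a transcript and a change in the RNA per cell cannot be told apart.

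**Figure D2:**
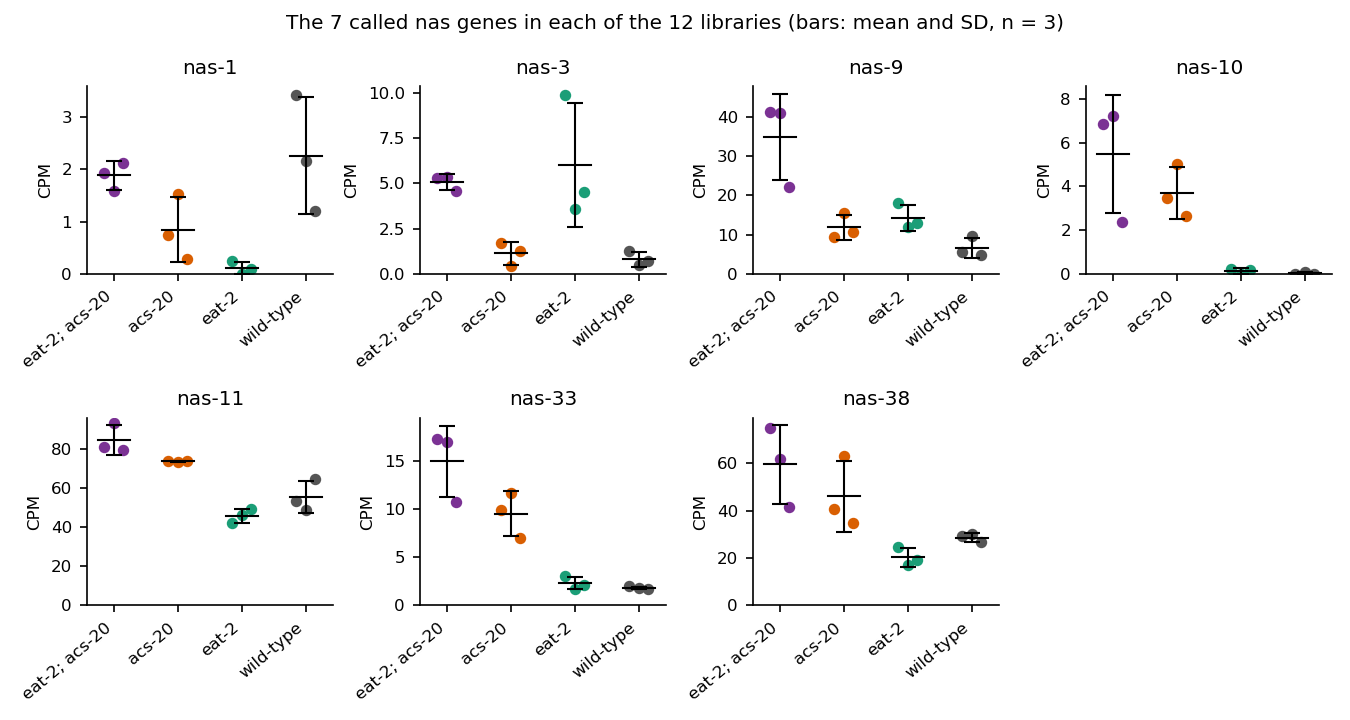
CPM of the 7 called nas genes in each library, with the eat-2; acs-20 double mutant at the left of each panel and wild-type at the right (points: libraries, bars: mean and SD, n = 3). nas-10 and nas-33 are high in both genotypes that carry the acs-20 mutation, nas-3 in both that carry eat-2, and nas-1 is close to 0 in eat-2 alone.

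nas-33 and nas-38 belong to the same subgroup as the moulting enzymes nas-36 and nas-37. nas-33 had 17.3, 16.9 and 10.7 CPM in the double mutant libraries, 9.93, 11.6 and 7.01 CPM in acs-20, 3.02, 1.74 and 2.17 CPM in eat-2, and 1.97, 1.79 and 1.70 CPM in wild-type. Every library with the acs-20 mutation was thus above every library without it, and eat-2 overlapped with wild-type. Against wild-type, nas-33 rose 8.14-fold in the double mutant (log2 3.02, SE 0.27, adjusted p = 8.77e-06 by edgeR) and 5.24-fold in acs-20 (log2 2.39, SE 0.28, adjusted p = 0.00027).

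The rise of nas-33 was also seen on the eat-2 background. The double mutant stood 6.45-fold above eat-2 (log2 2.69, SE 0.26, adjusted p = 7.05e-05 by edgeR). In eat-2 against wild-type the log2 difference was 0.33 (adjusted p = 0.617), which is no call. The double mutant against acs-20 gave 0.63 on the log2 scale (adjusted p = 0.0831), and it passed with the replicate number as a block (log2 0.64, adjusted p = 0.029) and without double mutant replicate 3 (log2 0.82, adjusted p = 0.0286). The interaction for nas-33 was 0.30, with a 95% interval of -0.55 to 1.16, so an unequal effect of acs-20 on the 2 backgrounds within that interval was not detectable. The 3 calls for nas-33 in the fit of all libraries held in every alternative fit and whichever library was left out. Its exons overlap K10C2.6 on the opposite strand by 85 bp, and K10C2.6 averaged 1.07, 0.783, 0.191 and 0.163 CPM in the double mutant, acs-20, eat-2 and wild-type. The strand setting of the counting is not given, and the part of K10C2.6 in the nas-33 values was not tested.

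nas-38 is an epidermal astacin, and gain-of-function alleles of it are known to increase sleep during the moult through epidermal antimicrobial peptides. It had 75.1, 61.7 and 41.7 CPM in the double mutant, 40.7, 62.9 and 34.6 CPM in acs-20, 24.5, 16.98 and 19.3 CPM in eat-2, and 29.2, 30.03 and 26.6 CPM in wild-type. As for nas-33, each library with the acs-20 mutation was above each library without it. nas-38 rose 2.07-fold in the double mutant against wild-type (log2 1.05, SE 0.24, adjusted p = 0.0106 by edgeR) and 2.93-fold against eat-2 (log2 1.55, SE 0.25, adjusted p = 0.00576).

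In acs-20 alone, nas-38 did not pass the test, with a log2 difference of 0.69 (95% interval 0.16 to 1.22, adjusted p = 0.212). The interaction for nas-38 was 0.86 (adjusted p = 0.658), so the acs-20 effect is not shown to differ between the backgrounds. Leaving out single libraries took the adjusted p of nas-38 up to 0.0477 against wild-type and 0.0408 against eat-2, still within the threshold.

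nas-10 showed the largest fold changes of the family. It had 6.88, 7.20 and 2.37 CPM in the double mutant (57, 77 and 29 reads) and 3.49, 5.01 and 2.66 CPM in acs-20 (33, 46 and 19 reads). In eat-2 it had 0.241, 0 and 0.188 CPM (2, 0 and 2 reads), and in wild-type 0, 0.0941 and 0 CPM (0, 1 and 0 reads). The gene was thus near silent without the acs-20 mutation, and it passed the filter on low counts only through the genotypes where it was high.

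As a ratio of summed reads scaled to library size, nas-10 was 158 times higher in the double mutant than in wild-type (163 reads against 1; exact 95% counting interval 27.95 to 6276). In acs-20 it was 115 times higher than in wild-type (98 reads against 1; interval 20.15 to 4585). For eat-2 against wild-type the ratio was 4.40 on 4 reads against 1, with an interval of 0.435 to 217 that includes equality. edgeR gave fitted log2 differences of 6.88 in the double mutant (SE 0.80, adjusted p = 8.66e-05) and 6.35 in acs-20 (SE 0.85, adjusted p = 0.000962), whose size depends on the added prior count. Without wild-type replicate 2, which held the only wild-type read, these became 8.67 and 8.16.

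The double mutant also stood above eat-2 for nas-10, by 5.10 on the log2 scale (SE 0.66, adjusted p = 0.000877 by edgeR). The double mutant against acs-20 gave 0.52 (adjusted p = 0.443). The interaction for nas-10 was -1.26 with a 95% interval of -4.58 to 2.07, too wide to compare the backgrounds. nas-10 overlaps K09C8.2 on the opposite strand by 29 bp, and K09C8.2 averaged 0.546, 0.262, 0 and 0.0648 CPM in the double mutant, acs-20, eat-2 and wild-type. The part of that overlap in the nas-10 values was not tested.

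nas-11, the most abundant member, changed by a smaller ratio. It had 81.1, 93.6 and 79.3 CPM in the double mutant, 73.9, 73.5 and 73.6 CPM in acs-20, 42.2, 46.0 and 49.4 CPM in eat-2, and 53.5, 48.6 and 64.7 CPM in wild-type. The libraries with and without the acs-20 mutation did not overlap. nas-11 rose in the double mutant by 0.61 on the log2 scale against wild-type (SE 0.11, adjusted p = 0.0025 by edgeR) and by 0.88 against eat-2 (SE 0.11, adjusted p = 0.000744).

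In acs-20 alone nas-11 gave 0.41 on the log2 scale (95% interval 0.16 to 0.65, adjusted p = 0.0911) and was not called, although it passed without wild-type replicate 3 (log2 0.53, adjusted p = 0.031). In eat-2 alone it gave -0.28 (adjusted p = 0.174), and the interaction was 0.48 (adjusted p = 0.501). nas-11 overlaps smf-2 on the opposite strand by 163 bp. smf-2 averaged 0, 0, 0.0388 and 0 CPM in the double mutant, acs-20, eat-2 and wild-type, and what the overlap carried was not tested.

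nas-9 was highest where the mutations were combined. It had 41.3, 41.1 and 22.2 CPM in the double mutant, 9.40, 15.5 and 10.7 CPM in acs-20, 18.1, 11.98 and 12.9 CPM in eat-2, and 5.70, 9.60 and 4.71 CPM in wild-type. All double mutant libraries were above all other libraries, the eat-2 libraries were above all wild-type libraries, and acs-20 overlapped with both eat-2 and wild-type. nas-9 rose in the double mutant by 2.37 on the log2 scale against wild-type (SE 0.32, adjusted p = 0.000432 by edgeR) and by 1.55 against acs-20 (SE 0.30, adjusted p = 0.00684).

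The double mutant against eat-2 was a borderline call for nas-9, at 1.28 on the log2 scale (SE 0.30, adjusted p = 0.0484 by edgeR). It held without wild-type replicate 2 or 3, acs-20 replicate 2 or double mutant replicate 3, and it was lost without each of the other 8 libraries, with an adjusted p of up to 0.219. With no filter on low counts the adjusted p was 0.122. The single mutants gave 0.82 in acs-20 (adjusted p = 0.286) and 1.09 in eat-2 (adjusted p = 0.0647), neither of which passed. In eat-2 against wild-type nas-9 did pass with the replicate number as a block (log2 1.14, adjusted p = 0.0173), with DESeq2 (adjusted p = 0.0108) and in a fit of the compared samples only (adjusted p = 0.0489). It also passed there without wild-type replicate 2 (adjusted p = 0.0245), acs-20 replicate 2 (adjusted p = 0.0471) or double mutant replicate 3 (adjusted p = 0.0278). The interaction for nas-9 was 0.46 (adjusted p = 0.883), so a departure from the product of the single effects was not shown.

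**Figure D3:**
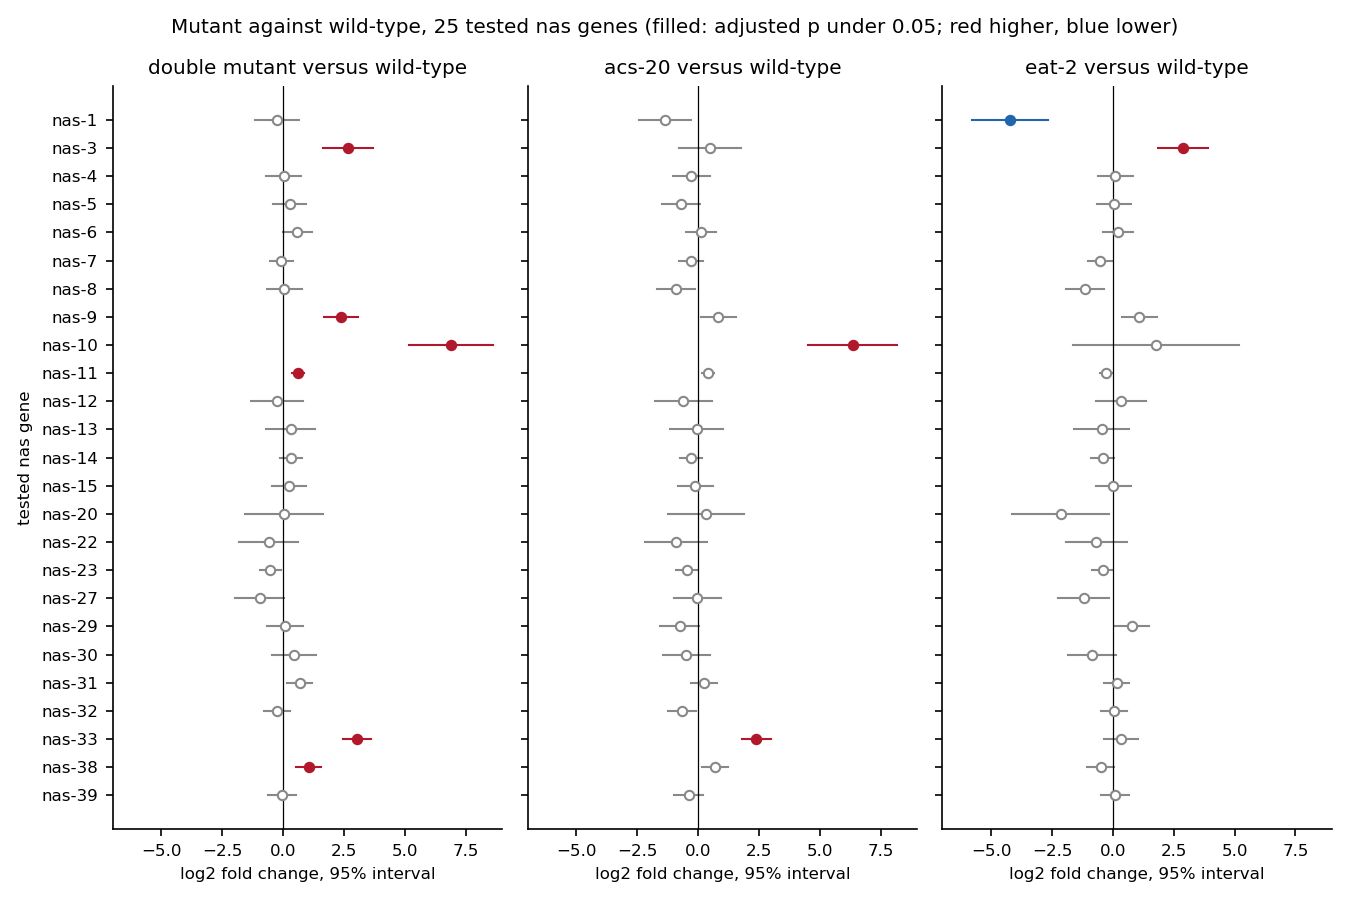
Log2 fold change with its 95% interval for the 25 tested nas genes, in the double mutant (left), acs-20 (middle) and eat-2 (right) against the same 3 wild-type libraries; filled points passed the adjusted p threshold. The double mutant has 6 higher members, acs-20 has nas-10 and nas-33, and eat-2 has nas-3 higher and nas-1 lower.

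nas-3 followed the eat-2 mutation. It had 5.31, 5.33 and 4.58 CPM in the double mutant, 1.69, 0.435 and 1.26 CPM in acs-20, 9.89, 3.605 and 4.52 CPM in eat-2, and 1.24, 0.471 and 0.702 CPM in wild-type. No library with the eat-2 mutation overlapped with one without it, although the wild-type values rest on 12, 5 and 7 reads. nas-3 rose by 2.65 on the log2 scale in the double mutant (SE 0.48, adjusted p = 0.00222 by edgeR) and by 2.88 in eat-2 (SE 0.47, adjusted p = 0.00229), both against wild-type.

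Against acs-20, nas-3 rose by 2.16 on the log2 scale in the double mutant (SE 0.46, adjusted p = 0.00956 by edgeR). The acs-20 mutant against wild-type gave 0.49 (adjusted p = 0.757), and the double mutant against eat-2 gave -0.24 (adjusted p = 0.824). The interaction was -0.73 (adjusted p = 0.882). All 3 calls for nas-3 held in every alternative fit.

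In the edgeR fit of all 12 libraries, nas-1 was the only member called lower in any contrast and the only one called for the interaction. DESeq2 also called nas-8 lower in eat-2 against wild-type (log2 -1.16, adjusted p = 0.0402) and higher for the interaction (log2 2.10, adjusted p = 0.0226). nas-1 had 1.93, 1.59 and 2.13 CPM in the double mutant (16, 17 and 26 reads) and 0.739, 1.52 and 0.280 CPM in acs-20 (7, 14 and 2 reads). In eat-2 it had 0.241, 0 and 0.0942 CPM (2, 0 and 1 reads), and in wild-type 3.42, 2.17 and 1.20 CPM (33, 23 and 12 reads). The eat-2 libraries were all below every other library, and the double mutant overlapped with wild-type.

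nas-1 fell in eat-2 against wild-type by 4.21 on the log2 scale (SE 0.72, adjusted p = 0.0028 by edgeR). Summed reads scaled to library size were 20.6 times higher in wild-type than in eat-2, on 68 reads against 3, with an exact 95% counting interval of 6.76 to 102. Without eat-2 replicate 1 the fitted difference was -5.13. The double mutant stood above eat-2 by 3.96 (SE 0.74, adjusted p = 0.0113), a ratio of 17.3 on 59 reads against 3, with a counting interval of 5.65 to 86.5. That call was lost without eat-2 replicate 3 (adjusted p = 0.0824), and without eat-2 replicate 1 the difference was 4.86.

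The interaction for nas-1 was 5.30 on the log2 scale (SE 0.90, adjusted p = 0.0297 by edgeR). It kept its sign in all fits, from 4.81 to 6.20 with 1 library left out. The call held only without wild-type replicate 3, eat-2 replicate 1 or acs-20 replicate 2, and was lost without each of the other 9 libraries, with an adjusted p of up to 0.133. The differences of nas-1 were -0.26 in the double mutant against wild-type (95% interval -1.18 to 0.66, adjusted p = 0.732) and -1.34 in acs-20 against wild-type (adjusted p = 0.228). The double mutant against acs-20 gave 1.09 (adjusted p = 0.183) and was not called. nas-1 had no eat-2 library past the filter on low counts and all 3 in wild-type and in the double mutant, so it was tested through the genotypes where it was high.

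Beside nas-1, the 5 tested marker genes of the pharyngeal marginal cells and epithelium had a summed level of 203 ± 36.1 CPM in the double mutant, 105 ± 56.1 CPM in acs-20, 77.0 ± 10.9 CPM in eat-2 and 213 ± 66.4 CPM in wild-type (SD, n = 3 each). The eat-2 sums ran from 66.9 to 88.5 CPM, below all double mutant and wild-type libraries. In eat-2 against wild-type, 3 of these 5 markers fell and none rose with edgeR or DESeq2, with 1 higher at an unadjusted p under 0.05. For the interaction their median was 2.35 on the log2 scale, with 0 of 5 called by edgeR, 3 higher at an unadjusted p under 0.05 and 3 higher with DESeq2. Of 7 tested pharyngeal muscle genes 3 were called higher for the interaction, or 42.9%, beside 0.139% of all genes. They were myo-2 by 1.71, tnt-4 by 1.83 and myo-1 by 1.37. None was lower with edgeR or DESeq2, with 4 higher and 1 lower at an unadjusted p under 0.05. The 8 listed muscle genes summed to a mean of 1577 CPM in the double mutant and 1903 CPM in acs-20. The mean sum was 1562 CPM in eat-2 and 1718 CPM in wild-type. The part of either list in the nas-1 values was not tested. The highest library was the same for nas-1 and the marginal cell and epithelial markers in acs-20 (replicate 2) and in eat-2 (replicate 1). It differed in wild-type, with replicate 1 for nas-1 and replicate 2 for the markers. In the double mutant it was replicate 3 for nas-1 and replicate 1 for the markers. The eat-2 order of nas-1 rests on 2, 0 and 1 reads. With 3 libraries per genotype, these matches cannot show a link and none is drawn.

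**Figure D4:**
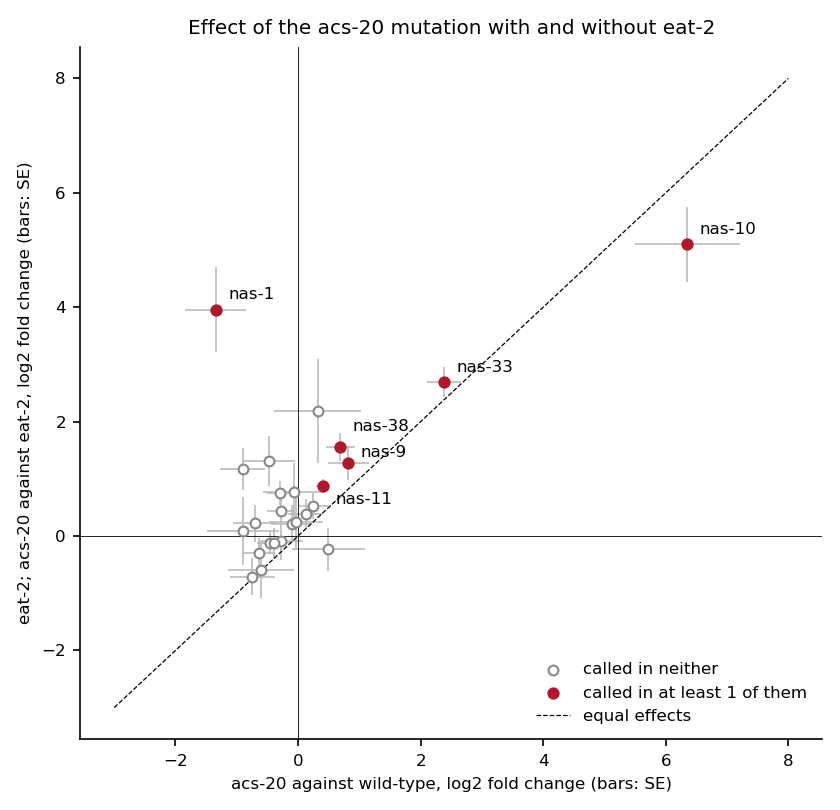
Log2 fold change of the 25 tested nas genes in acs-20 against wild-type (horizontal) and in the eat-2; acs-20 double mutant against eat-2 (vertical), with SE bars; the 2 axes share no library. nas-10 and nas-33 are called on both axes, and nas-1 lies farthest from the dashed line of equal effects, at -1.34 and 3.96.

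The comparisons of acs-20 with wild-type and of the double mutant with eat-2 use different libraries. Both come from the fit of all 12 libraries and share its estimates of spread, so their tests are not independent. Each compares strains with and without the acs-20 mutation, and other differences between those strains cannot be told apart from it. nas-10 and nas-33 passed the edgeR test in both. nas-1, nas-9, nas-11 and nas-38 passed only in the double mutant against eat-2, and of these only nas-1 had an interaction past the threshold. Over all 25 tested members the median log2 difference was 0.44 in the double mutant against eat-2, beside 0.001 over all genes, and -0.27 in acs-20 against wild-type, beside 0.005 over all genes.

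The members with a known part in the pharynx gave no call in the edgeR fit of all libraries. nas-6 is needed for the pharyngeal grinder. It averaged 2.14 ± 0.164 CPM in the double mutant, 1.56 ± 0.506 in acs-20, 1.64 ± 0.0935 in eat-2 and 1.42 ± 0.180 in wild-type (SD, n = 3 each). Its log2 difference in the double mutant was 0.59 (adjusted p = 0.152 by edgeR), and the single mutants gave 0.13 in acs-20 and 0.20 in eat-2.

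nas-7, another member linked to the pharynx, averaged 22.5 ± 8.15 CPM in the double mutant, 19.2 ± 4.50 in acs-20, 16.4 ± 0.432 in eat-2 and 23.45 ± 3.10 in wild-type (SD, n = 3 each). The eat-2 libraries were all below the wild-type ones, but the log2 difference of -0.52 (95% interval -1.003 to -0.03) did not pass the test (adjusted p = 0.203 by edgeR). A fit of the eat-2 and wild-type libraries alone gave -0.54 and called it (adjusted p = 0.0482). In the double mutant nas-7 gave -0.07 and in acs-20 -0.28 against wild-type.

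nas-39 has the domain order of the tolloid and BMP-1 type astacins. It averaged 3.54 ± 0.877 CPM in the double mutant, 2.745 ± 0.186 in acs-20, 3.83 ± 0.281 in eat-2 and 3.599 ± 1.21 in wild-type (SD, n = 3 each). The largest of its differences against wild-type was -0.39 on the log2 scale, in acs-20 (adjusted p = 0.574 by edgeR), so nas-39 did not differ beyond the spread between libraries.

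Among the other abundant members, nas-27 and nas-30 varied strongly between libraries of a genotype. nas-27 had 17.5, 6.87 and 5.31 CPM in the wild-type libraries, and averaged 5.04 ± 2.16 in the double mutant, 9.59 ± 4.35 in acs-20 and 4.28 ± 0.534 in eat-2. nas-30 had 5.49, 14.8 and 4.77 CPM in acs-20 and 12.5, 16.3 and 6.42 CPM in wild-type, and averaged 16.3 ± 3.32 in the double mutant and 6.56 ± 2.16 in eat-2. Neither gene was called in the edgeR fit of all libraries. nas-30 gave 1.31 on the log2 scale in the double mutant against eat-2 there. In that comparison it passed with DESeq2 (adjusted p = 0.049), in a fit of the compared samples only (adjusted p = 0.0211), with the replicate number as a block (adjusted p = 0.0399) and without acs-20 replicate 2 (adjusted p = 0.0475). Replicate 2 was the highest acs-20 library for nas-30.

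nas-20, which was chosen for mention after its values were seen, also varied widely within genotypes. It had 6.40, 2.71 and 1.96 CPM in the double mutant, 2.22, 8.93 and 1.68 CPM in acs-20, 0.844, 1.40 and 0.188 CPM in eat-2 and 3.53, 5.65 and 1.20 CPM in wild-type. Its log2 difference of 2.18 in the double mutant against eat-2 (SE 0.91) was the largest among the 18 members with no call in the edgeR fit of all libraries. Over the 5 pairwise comparisons those 18 ran from -2.15 to 2.18, and the smallest adjusted p among them was 0.0627, for nas-31 in the double mutant against wild-type (log2 0.68).

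Astacins outside the group gave lower calls in the double mutant. Of the 5 listed, hch-1, the hatching enzyme, had no reads, and 4 were tested. In the double mutant against wild-type 2 of them fell and none rose with edgeR, against 1 higher at an unadjusted p under 0.05 and 0 higher with DESeq2. nas-36 fell by 0.61 on the log2 scale (adjusted p = 0.00709 by edgeR) and nas-37 by 1.02 (adjusted p = 0.0326), both needed for shedding the old cuticle. dpy-31, a procollagen C-proteinase of the cuticle, gave -0.49 (adjusted p = 0.155), and toh-1 gave 0.97 (adjusted p = 0.11). nas-33 and nas-38 therefore rose in worms where the related nas-36 and nas-37 fell.

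Other secreted and membrane metalloproteases were compared in the double mutant against wild-type. Of 21 tested neprilysins 2 fell, or 9.52%, close to the 8.62% of all genes, nep-21 by 0.63 and nep-22 by 0.67 on the log2 scale. None rose with edgeR or DESeq2, with 1 higher at an unadjusted p under 0.05. Of 9 ADAM and ADAMTS proteases 2 rose, adm-2 by 0.58 and unc-71 by 0.65, and adm-4 fell by 0.64. Of 5 tested matrix metalloproteases, zmp-3 rose by 0.75 (adjusted p = 0.0133 by edgeR) and zmp-4 by 0.76 (adjusted p = 0.00063), and none was lower with edgeR, DESeq2 or at an unadjusted p under 0.05. zmp-4 also rose in acs-20 against wild-type by 0.59 (adjusted p = 0.0135) and in the double mutant against eat-2 by 0.61 (adjusted p = 0.0115).

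Among 4 protease inhibitors of the TIMP and Kunitz types, cri-2, which is TIMP-like, rose by 1.02 on the log2 scale (adjusted p = 0.00121 by edgeR) in the double mutant against wild-type. That is 25% of the list, beside 8.94% of all genes. None of the 4 was lower with edgeR or DESeq2, with 1 lower at an unadjusted p under 0.05, and their median was -0.21. Of 6 collagen processing genes 3 fell in that comparison, the prolyl 4-hydroxylase subunit dpy-18 by 0.76, its partner pdi-2 by 0.63 and the collagen sqt-3 by 1.01. None of the 6 rose with edgeR, DESeq2 or at an unadjusted p under 0.05.

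Marker lists of stage and tissue also differed between the genotypes. The 14 listed epidermal antimicrobial peptide genes summed to 681 to 1061 CPM in the double mutant, 681 to 870 CPM in acs-20, 284 to 323 CPM in eat-2 and 259 to 315 CPM in wild-type. Of the 10 tested, 8 rose in the double mutant against wild-type, 7 in acs-20 against wild-type, 7 in the double mutant against eat-2 and 2 in eat-2 against wild-type. Their libraries split by the acs-20 mutation, as did those of nas-10, nas-11, nas-33 and nas-38.

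Moulting genes summed to 3984 to 6103 CPM in the double mutant, 4781 to 8006 CPM in acs-20, 5761 to 7318 CPM in eat-2 and 5367 to 8539 CPM in wild-type. Of 17 tested, 2 rose and 2 fell with edgeR in the double mutant against wild-type, or 11.8% each way. Over all genes 8.94% rose and 8.62% fell. With DESeq2, 2 moulting genes were higher and 5 lower, and at an unadjusted p under 0.05, 3 were higher and 8 lower. Their median log2 difference was -0.45, beside 0.04 over all genes. Adult cuticle genes summed to 3454 to 5547 CPM in the double mutant, 8603 to 9144 CPM in acs-20, 5012 to 7982 CPM in eat-2 and 8652 to 10890.0 CPM in wild-type. In the double mutant against wild-type 5 of the 9 adult cuticle genes fell and none rose with edgeR, DESeq2 or at an unadjusted p under 0.05. All double mutant libraries were below all wild-type libraries for the sum of adult cuticle genes, and above them for nas-33, nas-9 and nas-11. The eat-2 sums were also all below the wild-type sums. In eat-2 against wild-type none of the 9 was called with edgeR and 4 were lower with DESeq2. At an unadjusted p under 0.05, 7 were lower there and none was higher. In eat-2, nas-9 was above all wild-type libraries, while nas-33 and nas-11 overlapped with wild-type. The part of stage in the nas values was not tested. The 9 epidermis genes summed to 2189 to 2521 CPM in the double mutant and 3005 to 3854 CPM in wild-type, and 2 of them fell, lon-3 by 1.86 and ifb-1 by 0.37 on the log2 scale. None of the 9 rose with edgeR, DESeq2 or at an unadjusted p under 0.05, while the epidermal nas-38 rose in the same libraries. The 9 listed pharyngeal gland genes summed to 353 to 380 CPM in the double mutant and 211 to 252 CPM in wild-type. Of the 7 tested, 2 rose, lys-8 by 0.75 and phat-6 by 1.22. None of these 7 was lower with edgeR, DESeq2 or at an unadjusted p under 0.05. The part of these lists in the nas values was not tested. Of 7 pharyngeal muscle genes, 3 fell in acs-20 against wild-type. None rose there with edgeR or DESeq2, with 2 higher at an unadjusted p under 0.05. In the double mutant against acs-20 4 of the 7 rose and 2 fell. The part of the muscle list in the nas values was likewise not tested.

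**Figure D5:**
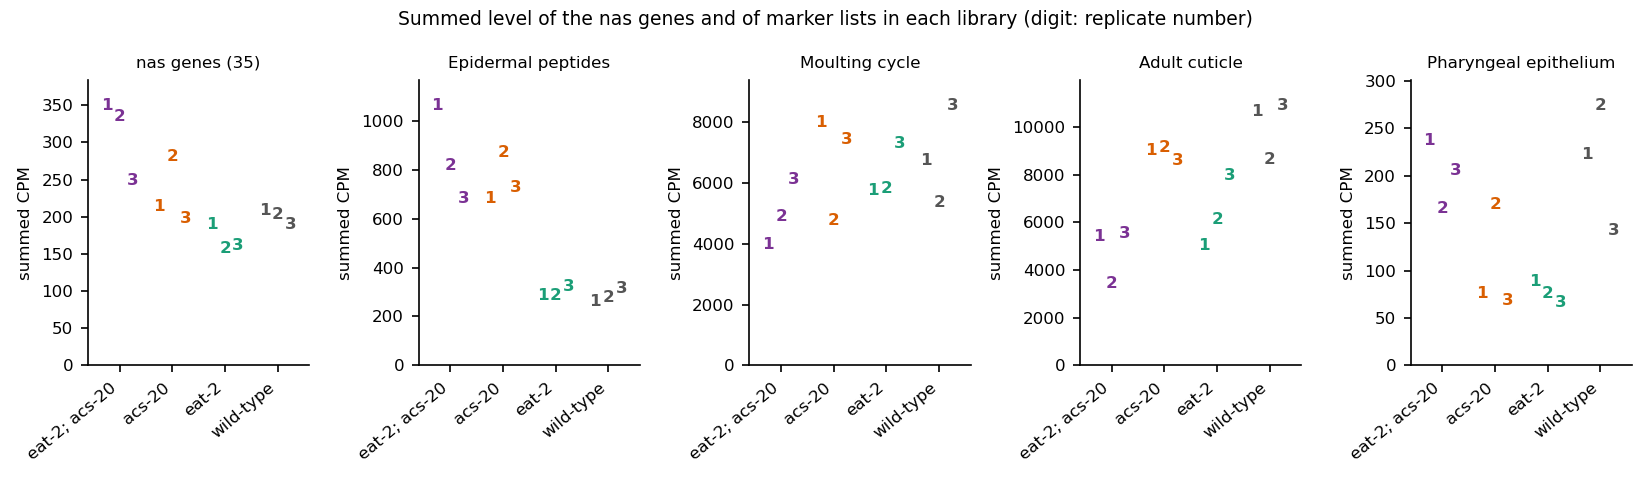
Summed CPM per library (the digit is the replicate number) of the 35 nas genes and of the marker lists for epidermal antimicrobial peptides, moulting, adult cuticle and pharyngeal epithelium, with the eat-2; acs-20 double mutant at the left and wild-type at the right. The epidermal peptides split by the acs-20 mutation, and acs-20 replicate 2 is highest of its genotype for the nas genes and lowest for moulting.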

How the data were processed

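Tools listed in the submitters' processing notes are TopHat2, HTSeq, DESeq2 and FastQC 0.11.5, with no roles stated. The authors deposited raw read counts per gene, 1 table per library, per the file contents. Neither the genome build nor the annotation or strand setting is given in the sources used here, so no coordinates are printed. Lines for reads in no gene held 44.1 to 46.5% of each table and were left out. Symbols came from the Ensembl WBcel235 annotation, and 43720 of 46739 gene IDs matched.

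The 12 libraries were fitted together with edgeR 4.0.16 (R 4.3.3, limma 3.58.1) as 4 group means with TMM factors (0.921 to 1.1), filterByExpr by genotype (minimum count 10, minimum total 15) and robust quasi-likelihood tests, which left 14390 genes and 8 residual degrees of freedom. The tested genes held 99.82 to 99.89% of counts in genes. CPM values use the TMM factors, and levels per kilobase divide by the union of exons. The scripts were tested on simulated data. Intervals on reads cover counting error only. Each SE is the absolute log2 fold change divided by the root of its F statistic, and the 95% intervals are built from it. Both are approximate, above all for genes with few reads, where the fold change depends on the added prior count. For nas-10 the interaction SE (1.55) is even below that of eat-2 against wild-type (1.58), 1 of its parts. Alternatives were RLE factors, no filter, a stricter filter, a replicate block, a fit of the compared samples only, DESeq2 1.42.0 and leaving out each library.

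Members with every library's value are those called in at least 1 contrast. The 6 tested members highest per kilobase, nas-6, nas-7, nas-38 and nas-39 are given by group. The members and gene lists were chosen with earlier results of these data known, so counts on them are descriptions. Of each other list at most 3 called genes are named.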

Additional observations from a re-analysis of the deposited data

Results flagged for a closer look

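nas-1 drew attention because its difference with the eat-2 mutation was itself tested between the backgrounds and passed. The interaction was 5.30 on the log2 scale, the eat-2 effect where acs-20 is mutated less that where it is intact (SE 0.90, adjusted p = 0.0297 by edgeR). nas-1 averaged 1.88 ± 0.271 CPM in the double mutant, 0.848 ± 0.629 CPM in acs-20, 0.112 ± 0.122 CPM in eat-2 and 2.26 ± 1.11 CPM in wild-type (SD, n = 3 each). All 3 double mutant libraries were above all 3 acs-20 libraries, and all 3 eat-2 libraries were below all 3 wild-type libraries. Of these steps the double mutant against acs-20 was not called (log2 1.09, adjusted p = 0.183), while eat-2 against wild-type was (log2 -4.21, adjusted p = 0.0028). nas-1 had no eat-2 library past the filter on low counts, so it was tested through the genotypes where it was high. The eat-2 group rests on 3 reads in all, and the call was lost in 9 of 12 fits that left out 1 library.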

How the results depend on the processing

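The 19 calls of single nas genes were refitted 341 times under the alternatives and with single libraries left out. They stayed called in 322 of these fits, lost the call in 19 and reversed in 0. The lost calls were those of nas-1 and nas-9 given above. The number of nas genes called in eat-2 against wild-type was 2, and it became 4 with no filter on low counts, 4 with DESeq2 and 5 in a fit of the compared samples only, with 2 to 4 when single libraries were left out. As shares of the members tested under each setting these are 12.5, 13.8 and 21.7%, beside 5.61, 8.69 and 6.86% of all genes. The interaction count of 1 became 2 with no filter and 2 with DESeq2, with 0 to 3 when single libraries were left out, the 3 without acs-20 replicate 2. For the double mutant against acs-20 the count of 2 became 4 with the replicate number as a block (nas-30 and nas-33 gained, 16% of members beside 16.8% of all genes), and ran from 2 to 4 with single libraries left out. Leaving out single libraries gave 2 to 3 in acs-20 against wild-type, 6 to 7 in the double mutant against wild-type and 4 to 7 in the double mutant against eat-2. The causes were not tested.

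With the replicate block the other counts were 3 in eat-2 against wild-type, 2 in acs-20 against wild-type, 6 in the double mutant against wild-type, 7 in the double mutant against eat-2 and 1 for the interaction. Deviations of same-numbered libraries correlated between -0.091 and 0.429, above 0.1 in 9 of 18 pairs, and the own number was the best match in 21 of 36 cases. These values do not settle whether the numbers pair the libraries. The labels do not say that they do, and for that reason the main fit had no replicate block. The interaction needs all 4 genotypes, so it has no fit of the compared samples only. Depth limits nas-10 in wild-type (1 read) and nas-1 in eat-2 (3 reads).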
